A study of Mus musculus with 6 samples.

Results

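The genes described here encode 10 amino acid transporters or transporter subunits, namely Slc6a14, Slc1a5, Slc3a1, Slc3a2, Slc7a5, Slc7a7, Slc7a8, Slc7a9, Slc38a1 and Slc38a2. They were chosen by name, and each matched 1 of the 23725 genes of the deposited table through its Entrez number. RNA had been sequenced from enriched colonic epithelial cells of C57BL/6J mice, prepared on a Percoll gradient without culture. The knockout group (3 libraries) has the genotype label B6-Cg-Nr3c1-Vil-Cre/ERT2 (Nr3c1IEC-/-), a tamoxifen-inducible deletion of the glucocorticoid receptor gene driven by the villin promoter of intestinal epithelium, and the wild-type group (3 libraries) is labelled wild type. Both groups carry the same treatment label, tamoxifen given into the peritoneum on 5 consecutive days, with cells taken 7 days after the first injection. Neither the deleted exon nor whether the wild-type mice carried the Cre transgene is stated, so an effect of Cre with tamoxifen cannot be told apart from that of receptor loss. The labels also do not say that each library came from its own mouse, and p-values measure the spread between these libraries.

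Amino acid transporters of epithelia fall into a few functional groups. Some take amino acids up from the lumen with sodium, some exchange one amino acid for another, and some are heterodimers in which a glycoprotein heavy chain brings a catalytic light chain to the membrane. In the heterodimers, Slc3a1 (rBAT) pairs with the light chain Slc7a9 at the apical membrane, and Slc3a2 (4F2hc, CD98) pairs with light chains that include Slc7a5, Slc7a7 and Slc7a8. Apical carriers of this kind are best known from small intestine and kidney, whereas Slc6a14 is known as a carrier of colon and lung epithelium.

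Recovered reads numbered 10089313 to 12030844 per library. Nr3c1, the targeted gene, had 144.7, 123.1 and 174.7 normalized reads in the knockout libraries, against 1120, 967.1 and 196.7 in the wild-type libraries. The library labelled wild type replicate 3 therefore goes against its label at this gene, and each transporter gene that passed the test is also given with that library left out. Nr3c1 was lowered across all 6 libraries (log2 change -2.03, limma adjusted p = 0.0372) and with it left out (-2.82, 0.000731), while the exact permutation p, two-sided, was 0.1, the smallest that 3 against 3 libraries allow. Of 14 epithelial genes checked, 2 rose (Krt20 and Vil1) and 4 fell (Cdx1, Cdx2 and Car1 among them), with a median log2 change of -0.03. Among all genes tested 15.0% were raised and 15.4% lowered. Epcam (-0.07), Cdh1 (0.10) and Krt8 (0.00) did not pass the test. Leaving out wild type replicate 1 left 1 raised and 1 lowered of the 14. Leaving out wild type replicate 2 left 1 and 2, and leaving out the library labelled wild type replicate 3 left 2 and 3. The 14 genes summed to 318900 to 396600 normalized reads in the knockout libraries and to 431300 to 443200 in the wild-type libraries. Without Car1, a choice made after seeing the data, the sums overlapped, at 296400 to 331600 in knockout and 277300 to 323100 in wild-type libraries. In bulk RNA, fewer cells of a type and less RNA per cell cannot be told apart.

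Of the 10 transporter genes, 4 rose and 2 fell in the knockout libraries, and 4 did not pass the test. The genes that rose were Slc7a9, Slc7a7, Slc7a5 and Slc3a2, all parts of heterodimeric exchangers. The 2 that fell, Slc6a14 and Slc1a5, work without a heavy chain. The classes did not split cleanly, as Slc3a1 and Slc7a8 are also heterodimer parts and did not pass the test. Slc7a8 had a negative log2 change (-0.87). Slc38a1 and Slc38a2, which also work without a heavy chain, did not pass it either. All 10 genes passed the filter on low values (at least 10 normalized reads in at least 3 of 6 libraries). Over all 12837 genes tested, 15.0% were raised and 15.4% lowered at a limma adjusted p under 0.05, or 30.5% in either direction. The groups did not overlap for the same 6 transporter genes, and of all genes tested 25.2% lay wholly higher and 25.5% wholly lower in the knockout libraries, or 50.7% in either direction. The median log2 change was 0.30 for the 10 genes and 0.01 for all genes tested. With the library labelled wild type replicate 3 left out, 2 of the 10 rose (of all genes 12.6%) and 2 fell (of all genes 12.5%). The raised transporter genes also numbered 2 where knockout replicate 1 was left out, and 2 where wild type replicate 1 was.

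Stretches of promoter sequence are shown for Slc7a9, the transporter gene with the largest rise, for Slc7a7, with a repeated motif, and for Slc6a14, with the highest level. They are RefSeq sequence of GRCm38.p6, the assembly behind mm10, written 5′ to 3′ on the gene's own strand. They end at a transcript start or, for Slc7a7, 8 bases after it. For Slc7a9 and Slc7a7 that start lies within the annotated gene, not at its outermost end. Capitals mark the letters TGATGNAA, the core of the C/EBP-ATF response element (CARE) through which the amino acid response factor ATF4 is known to act.
Slc7a9, chr7:35448942-35449091, plus strand: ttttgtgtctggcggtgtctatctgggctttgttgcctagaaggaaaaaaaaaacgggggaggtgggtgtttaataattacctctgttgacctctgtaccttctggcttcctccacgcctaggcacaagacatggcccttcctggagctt
Slc7a7, chr14:54417937-54418094, minus strand: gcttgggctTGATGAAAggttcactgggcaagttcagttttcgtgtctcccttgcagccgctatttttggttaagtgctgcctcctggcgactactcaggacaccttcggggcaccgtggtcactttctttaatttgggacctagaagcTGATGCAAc
Slc6a14, chrX:21714750-21714899, plus strand: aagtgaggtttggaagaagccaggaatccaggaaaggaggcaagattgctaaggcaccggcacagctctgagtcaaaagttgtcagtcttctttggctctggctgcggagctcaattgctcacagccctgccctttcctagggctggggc

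Promoter windows of 300 bases, 250 before and 50 after a start, were searched on both strands for this core, for the palindromic glucocorticoid response element (AGAACA and TGTTCT with 3 letters between) and for the STAT core TTCNNNGAA. The table held 12 windows for 7 of the 10 genes, and sequences of Slc1a5, Slc7a5 and Slc38a1 were not used here. No window of Slc7a9, Slc7a7 or Slc3a2 covered the outermost annotated start of its gene. Only Slc7a7 had a match, with 2 copies of the CARE core in the first of its 5 windows, at 141 bases and at 1 base before the start, the second of which is also found in an overlapping window. Of the 32851 windows of the table, 3.97% held this core and 0.07% held it more than once. The glucocorticoid element was in 0.00913% of all windows and the STAT core in 8.3%, and neither was in a window of these genes. The Slc7a7 start was picked for display because of its matches, and a match of letters is not a binding site.

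Slc6a14 (chromosome X, 21714900 to 21742358) encodes a carrier that takes up neutral and cationic amino acids with sodium and chloride. It had 3209, 4136 and 4968 normalized reads in the knockout libraries, against 7579, 7792 and 8012 in the wild-type libraries. Every knockout library was below every wild-type library, the wild-type libraries lay close together, and knockout replicate 1 was the lowest. The means were 4104 ± 880 in knockout and 7794 ± 216 in wild-type libraries (SD, n = 3 each), a ratio of 0.527 (log2 change -0.95, SE 0.17, limma adjusted p = 0.00623). With the library labelled wild type replicate 3 left out, the log2 change was -0.93 (limma adjusted p = 0.0191).

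Slc1a5 (chromosome 7, 16781334 to 16798274), known as ASCT2, encodes a sodium-dependent exchanger of glutamine and other neutral amino acids. Its knockout libraries had 679.3, 704.6 and 759 normalized reads, and its wild-type libraries 1515, 1895 and 1412. The knockout libraries were narrowly spread and all lay below the wild-type ones. It had the smallest p of the genes that fell, with a ratio of 0.444 between the group means of 714 ± 40.7 in knockout and 1607 ± 255 in wild-type libraries (SD, n = 3 each; log2 change -1.16, SE 0.13, limma adjusted p = 0.0014). With the library labelled wild type replicate 3 left out, the log2 change was -1.25 (limma adjusted p = 0.00303).

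**Figure D1:**
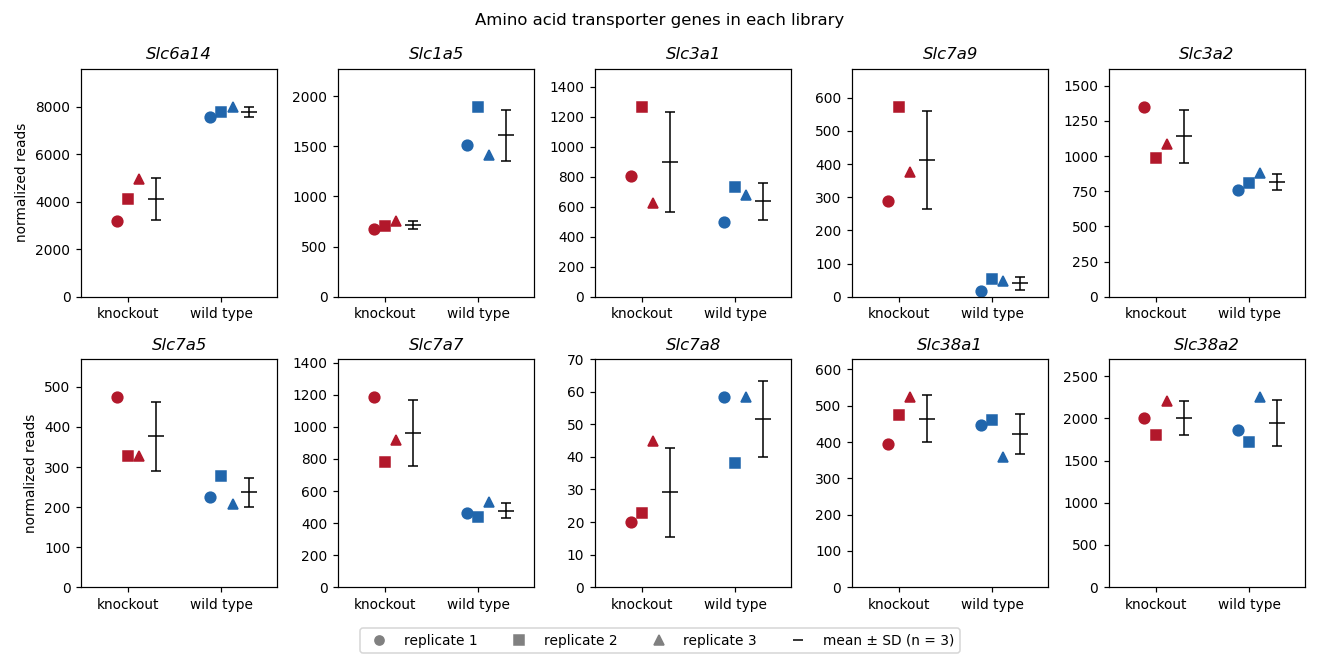
Normalized reads of the 10 transporter genes in each library, 1 panel per gene with its own axis from 0, knockout left and wild type right, with the mean ± SD (n = 3) as a bar beside the points. Slc6a14 and Slc1a5 are lower and Slc7a9, Slc3a2, Slc7a5 and Slc7a7 higher in all 3 knockout libraries, while the groups overlap for the other 4.

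The apical pair changed unevenly. Slc7a9 (chromosome 7, 35448727 to 35466034) is the light chain that carries cystine and basic amino acids, and mutations of either subunit gene cause cystinuria in humans. It had 287.2, 573.2 and 376.1 normalized reads in the knockout libraries, against 18.04, 54.8 and 48.3 in the wild-type libraries. The lowest knockout library was above the highest wild-type library, and the highest was knockout replicate 2. With means of 412 ± 146 in knockout and 40.4 ± 19.6 in wild-type libraries (SD, n = 3 each), the ratio was 10.2, and the log2 change was 3.41 (SE 0.43, limma adjusted p = 0.00203). This was the largest change of the 10 genes. Leaving out the library labelled wild type replicate 3 gave 3.61 (limma adjusted p = 0.00469).

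Slc3a1 (chromosome 17, 85028347 to 85064241), the heavy chain partner of Slc7a9, did not pass the test. It had 804, 1269 and 627.2 normalized reads in the knockout libraries and 499.9, 730.5 and 679.4 in the wild-type libraries. The groups overlapped, and knockout replicate 2, the highest library for Slc7a9, was the highest here too (log2 change 0.45, SE 0.26, limma adjusted p = 0.213). In the GENCODE M21 annotation 26.5% of its exon length lies over exons of Prepl on the opposite strand, and the libraries were not stranded. Prepl had 577.6, 963.3 and 670.2 normalized reads in the knockout libraries, against 646.4, 747.1 and 677.6 in the wild-type libraries, and was also highest in knockout replicate 2. The share of Slc3a1 reads that came from Prepl was not tested.

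Slc3a2, Slc7a5 and Slc7a7 rose together by smaller amounts. Slc3a2 (chromosome 19, 8706882 to 8723369), the heavy chain, had 1352, 986.1 and 1085 normalized reads in the knockout libraries, against 759.9, 807.7 and 877.9 in the wild-type libraries. No knockout library reached down to the wild-type range, and the gap was narrow (log2 change 0.47, SE 0.14, limma adjusted p = 0.0364). The call was lost on leaving out the library labelled wild type replicate 3 (log2 change 0.53, limma adjusted p = 0.0554). The same held for leaving out wild type replicate 1 (0.42, 0.127) or 2 (0.47, 0.109), or knockout replicate 1 (0.35, 0.0611) or 3 (0.50, 0.0642).

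Slc7a5 (chromosome 8, 121881146 to 121907686), or LAT1, is the light chain that exchanges large neutral amino acids such as leucine. Its values were 474.9, 328 and 326.5 normalized reads in the knockout libraries and 225, 277.7 and 207.6 in the wild-type libraries. Knockout replicate 1 stood above the other knockout libraries, which were closer to the wild-type range (log2 change 0.65, SE 0.19, limma adjusted p = 0.0352). Its call was lost on leaving out the library labelled wild type replicate 3 (0.57, limma adjusted p = 0.0952), wild type replicate 1 (0.62, 0.111) or knockout replicate 1 (0.48, 0.0626).

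Slc7a7 (chromosome 14, 54369442 to 54420068), or y+LAT1, is the basolateral light chain that exports basic amino acids in exchange for neutral ones and sodium, and its loss causes lysinuric protein intolerance in humans. It had 1187, 779.1 and 916.5 normalized reads in the knockout libraries, against 464.9, 437.1 and 530 in the wild-type libraries. All knockout libraries were above all wild-type ones, with knockout replicate 1 the highest as for Slc3a2 and Slc7a5. The means were 961 ± 207 in knockout and 477 ± 47.7 in wild-type libraries (SD, n = 3 each), a ratio of 2.01 (log2 change 0.99, SE 0.17, limma adjusted p = 0.00549). With the library labelled wild type replicate 3 left out, the log2 change was 1.07 (limma adjusted p = 0.011). Exons of Oxa1l on the opposite strand cover 7% of its exon length. Oxa1l had 698.2, 638.4 and 673 normalized reads in the knockout libraries and 818.3, 860.5 and 782.3 in the wild-type libraries, so these values lay on the other side from those of Slc7a7.

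Slc7a8 (chromosome 14, 54722215 to 54781886), or LAT2, another basolateral exchanger of neutral amino acids, had 19 to 64 reads per library. Its values were 19.9, 22.8 and 44.9 normalized reads in the knockout libraries and 58.4, 38.1 and 58.3 in the wild-type libraries. Knockout replicate 3 lay within the wild-type range (log2 change -0.87, SE 0.35, limma adjusted p = 0.0975). Without that library the change was -1.21 and passed the test (limma adjusted p = 0.0329).

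The sodium-coupled carriers of small neutral amino acids such as glutamine and alanine, Slc38a1 (SNAT1) and Slc38a2 (SNAT2), differed least. Slc38a1 (chromosome 15, 96571418 to 96643438) had 394.2, 474.9 and 524.1 normalized reads in the knockout libraries, against 445.8, 460.6 and 359.7 in the wild-type libraries. Slc38a2 (chromosome 15, 96687392 to 96699728), which is known to be induced when amino acids are short, had 2001, 1806 and 2209 in the knockout libraries and 1867, 1726 and 2254 in the wild-type libraries. The groups were interleaved for both genes, and the log2 changes of 0.14 (SE 0.15) and 0.05 (SE 0.14) did not pass the test (limma adjusted p = 0.519 and 0.815).

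Per exon length, the order of levels among the 10 genes also differed between the groups. Levels are in normalized reads per kb of merged GENCODE M21 exons, and the annotation that the authors counted on is not given in the sources used here. Slc6a14 was highest in both groups, at 1195 ± 256 per kb in knockout and 2270 ± 62.9 per kb in wild-type libraries (SD, n = 3 each). Slc1a5 stood at 171 ± 9.76 per kb in knockout libraries and at 385 ± 61 per kb in wild-type libraries. In the knockout libraries it came after Slc3a1 (396 ± 146), Slc3a2 (323 ± 53.7), Slc7a7 (290 ± 62.5) and Slc38a2 (227 ± 22.8), and its values overlapped those of Slc7a9 (154 ± 54.7). In the wild-type libraries it was second, above the ranges of Slc3a1 (280 ± 53.3), Slc3a2 (231 ± 16.8) and Slc38a2 (220.5 ± 30.9).

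Neighbours in that order were often not separated. Slc3a1 overlapped Slc3a2 in range within both groups, and so did Slc3a2 and Slc7a7 in the knockout libraries. In the knockout libraries Slc7a9, at 154 ± 54.7 per kb, overlapped Slc7a5, at 101.5 ± 23 per kb. In the wild-type libraries Slc7a9, at 15.1 ± 7.32 per kb, instead overlapped Slc7a8, at 10.3 ± 2.33 per kb, while Slc7a5 was at 63.9 ± 9.84 and Slc7a7 at 144 ± 14.4 per kb. Slc38a1 was at 26.9 ± 3.81 per kb in knockout and 24.5 ± 3.16 per kb in wild-type libraries, over merged exons of 17.24 kb. Slc7a8 was the lowest in the knockout libraries, at 5.83 ± 2.73 per kb.

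**Figure D2:**
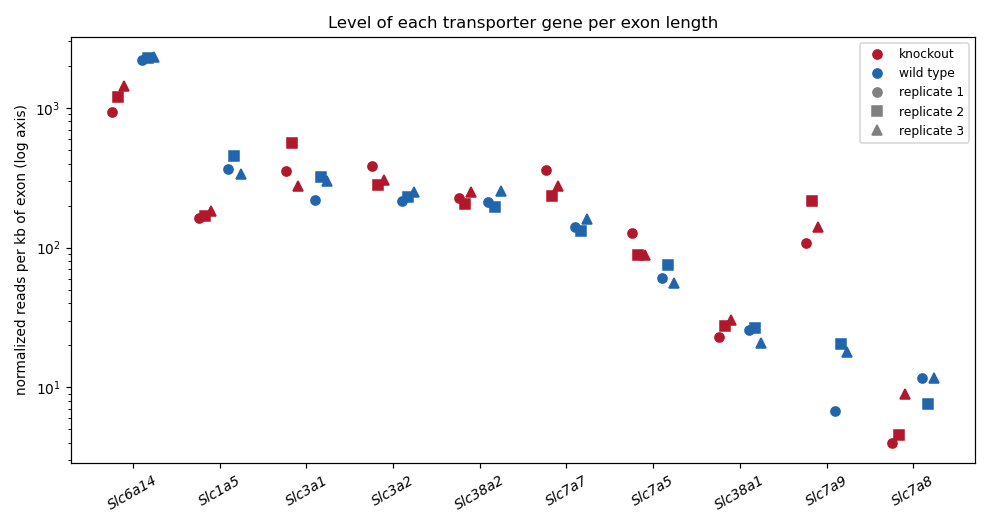
Normalized reads per kb of merged exons (log axis) for each transporter gene and library, ordered by the wild-type mean, knockout points left of wild-type points. Slc6a14 is highest in both groups, and Slc7a9 lies near Slc7a8 in wild-type libraries and near Slc1a5 and Slc7a5 in knockout libraries.

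**Figure D3:**
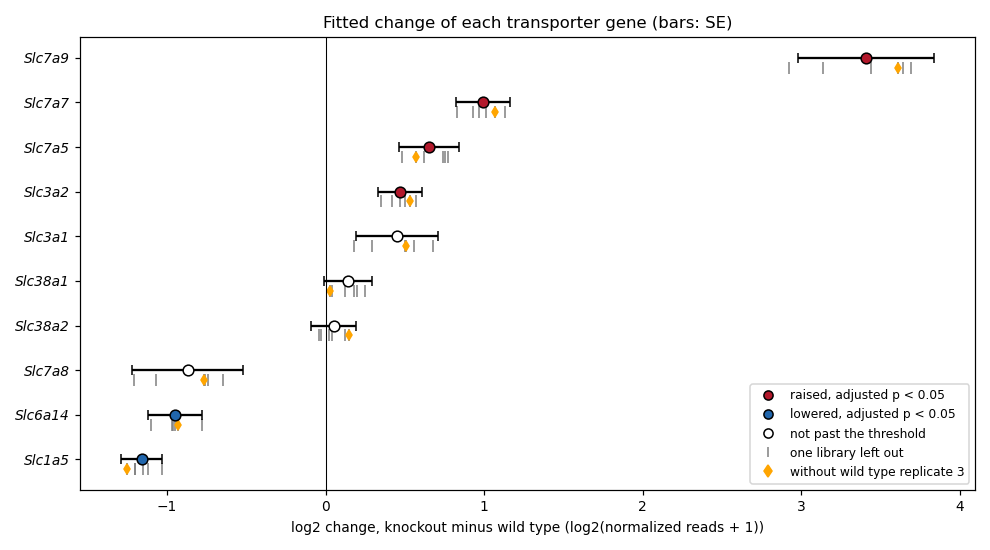
Fitted log2 change (knockout minus wild type) with its SE for the 10 genes, with small marks below each for the fits that leave out 1 library and diamonds for those without the library labelled wild type replicate 3. Slc7a9 has the largest change at 3.41 and Slc1a5 the lowest at -1.16, and the values of Slc38a2 without 1 library lie on both sides of 0.

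Since heavy and light chains form pairs, the log2 difference between a light chain gene and its heavy chain gene was taken within each library, where scaling of the library cancels. The offset of a pair depends on the lengths of its genes, so only its difference between groups is read. For Slc7a9 minus Slc3a1 this difference was -1.48, -1.14 and -0.74 in the knockout libraries and -4.72, -3.71 and -3.79 in the wild-type libraries. The mean was 2.95 higher in the knockout libraries, with no overlap.

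Among the partners of Slc3a2, Slc7a7 came closer to its heavy chain, and Slc7a8 lay further below it. Slc7a7 minus Slc3a2 was -0.19, -0.34 and -0.24 in the knockout libraries and -0.71, -0.88 and -0.73 in the wild-type libraries, a difference of 0.52. Slc7a8 minus Slc3a2 was -6.02, -5.38 and -4.56 in the knockout libraries, against -3.68, -4.37 and -3.89 in the wild-type libraries, a difference of -1.34. Slc7a5 minus Slc3a2 was -1.51, -1.59 and -1.73 in the knockout libraries and -1.75, -1.54 and -2.07 in the wild-type libraries. This last pair overlapped between groups, with a difference of 0.18, so no shift of Slc7a5 against its heavy chain was detected. For the other 3 of the 4 pairs the two-sided exact permutation p was 0.1, the smallest possible with 3 libraries a group (0.133 adjusted over the 4 pairs), so the design cannot reach 0.05. For Slc7a5 it was 0.4, also when adjusted.

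**Figure D4:**
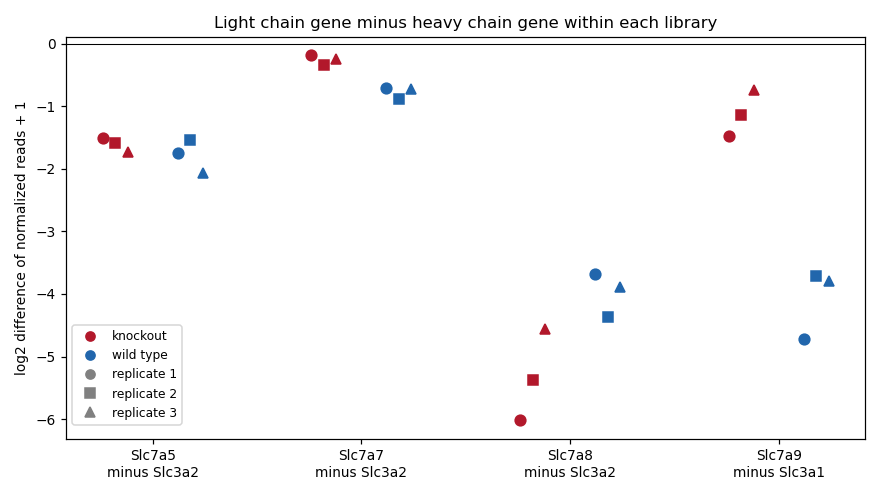
Difference in log2(normalized reads + 1) between a light chain gene and its heavy chain gene within each library, knockout points left of wild-type points in each pair. Slc7a9 lies nearer to Slc3a1 in all 3 knockout libraries, with a mean difference of 2.95 between groups, and Slc7a5 minus Slc3a2 overlaps.

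Among the immune, stromal and neural marker lists, only the myeloid sums lay wholly apart between the groups. The 13 myeloid markers summed to 3349 to 8559 normalized reads in the knockout libraries and 613.5 to 1248 in the wild-type libraries. Of them 10 rose, and the share raised among all genes tested, also for the marker counts below, was 15.0%. Knockout replicate 1 had the highest myeloid sum and also the highest Slc3a2, Slc7a5 and Slc7a7. Of the knockout libraries it had the lowest values of Slc6a14 and Slc1a5, the genes that fell, and of Slc7a9, which rose. The summed levels in knockout and wild-type libraries were 172.8 to 482.2 and 91.9 to 179.4 for 11 T cell and intraepithelial lymphocyte markers, of which 1 of 5 tested rose, and 2 on leaving out the library labelled wild type replicate 3 or knockout replicate 2. They were 834 to 2639 and 606 to 1137 for 10 fibroblast and muscle markers, of which 1 of 7 tested rose, and 0 to 3 with 1 library left out (0 on leaving out knockout replicate 1 or 3 or wild type replicate 1 or 2, and 2 on leaving out the library labelled wild type replicate 3).

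The remaining markers were low. The 7 B and plasma cell markers summed to 53.8 to 188.1 normalized reads in knockout and 11.7 to 81.0 in wild-type libraries, the 6 endothelial markers to 22.8 to 48.7 and 46.9 to 51.9, and the 6 glial and neuronal markers to 5.17 to 5.73 and 2.12 to 8.80. Sox10 was at 0 in all libraries, and Cdh5, Emcn and Elavl4 were at 0 in the wild-type libraries. The mean log2 level of the 53 markers of these 6 lists was 4.82, 3.76 and 4.39 in the knockout libraries and 2.86, 3.10 and 3.64 in the wild-type libraries, so it did not overlap between the groups.

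With that level as a covariate 0 of the 10 transporter genes passed the test, and 141 of all genes did, so genotype and marker level can hardly be told apart in this fit. The estimates moved unequally. Slc7a9 (3.52, limma adjusted p = 0.0932), Slc1a5 (-1.04, 0.102) and Slc6a14 (-0.78, 0.299) had log2 changes of the same sign as those above, with calls lost and larger SEs (0.78, 0.24 and 0.29). Those of Slc7a7 (0.47, 0.369) and Slc7a5 (0.42, 0.665) were smaller, and that of Slc3a2 was near 0 (0.07, 0.924).

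Markers of small intestine, where Slc7a9 and Slc3a1 are best known, overlapped between the groups in their sum. The 10 genes summed to 1697 to 4226 normalized reads in the knockout libraries and 2615 to 3196 in the wild-type libraries, and of 8 tested 2 rose and 0 fell. The 2 were the apolipoprotein genes Apoa1 and Apoa4. Knockout replicate 2, the highest for Slc7a9, also had the highest sum of these markers. Knockout replicate 1 had the lowest sum (1697), below the wild-type range, while its Slc7a9 value of 287.2 lay above that of every wild-type library. The small intestine counts, and the cell cycle and goblet counts that follow, stand beside 15.0% raised and 15.4% lowered among all genes tested. Of 13 cell cycle genes 7 rose, but 0 did on leaving out wild type replicate 1 or 2, 1 on leaving out knockout replicate 1, 3 on leaving out knockout replicate 2 and 4 on leaving out knockout replicate 3. Their sums were 9597 to 14350 normalized reads in knockout and 4426 to 8517 in wild-type libraries. The 8 goblet cell markers summed to 50080 to 80850 in knockout and 84730 to 88770 in wild-type libraries, and 1, Muc2, fell. Leaving out the library labelled wild type replicate 3 or knockout replicate 2 left 2 lowered goblet genes. Without Muc2, also chosen after seeing the data, the sums overlapped, at 41900 to 70920 in knockout and 52380 to 66630 in wild-type libraries. The part of any of these cell populations in the transporter values was not tested.

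Other amino acid transporters of the plasma membrane mostly did not pass the test. Of the genes named by rule from this and the following lists, 23 passed the test, and all 23 also did, in the same direction, with the library labelled wild type replicate 3 left out. They were picked by their smallest adjusted p in these same data, so the kept calls are no independent support. Leaving out wild type replicate 1 or 2 lost more calls among all genes (1923 and 1960 left, against 3228). Of 38 other plasma membrane transporter genes 21 were tested, 2 rose and 2 fell, and the median log2 change was -0.06. Among all genes tested 15.0% were raised and 15.4% lowered. Slc1a1, a sodium-coupled carrier of glutamate, had 138.4, 155.2 and 188.1 normalized reads in the knockout libraries, against 421.4, 350.1 and 530 in the wild-type libraries. Its log2 change was -1.42 (limma adjusted p = 0.00244). Slc1a4, a neutral amino acid exchanger closely related to Slc1a5, had 202.3, 279.4 and 224.3 in the knockout libraries, against 765.3, 480.1 and 464.5 in the wild-type libraries (-1.25, 0.00623). Both fell as Slc1a5 did, without overlap.

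The 2 that rose were Slc7a11 and Slc6a19. Slc7a11, the cystine and glutamate exchanger that also pairs with Slc3a2, had 1608, 945.7 and 962.3 normalized reads in the knockout libraries, against 538.1, 390.2 and 621.1 in the wild-type libraries (log2 change 1.16, limma adjusted p = 0.0121). Slc6a19, the main apical carrier of neutral amino acids in small intestine, was named after its values were seen, with 19.9, 272.1 and 27.7 in the knockout libraries and 1.06, 4.89 and 7.29 in the wild-type libraries (3.56, 0.0308). Knockout replicate 2 stood far above the other libraries for Slc6a19, as it was the highest for Slc7a9. Leaving out wild type replicate 1 or 2 left 1 raised gene in this list, and leaving out the library labelled wild type replicate 3 left 2. Slc7a1 and Slc7a6, carriers of basic amino acids, had log2 changes of -0.01 and 0.14 and did not pass the test.

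Of 10 tested genes of peptide transport and partners of transporters, 5 rose and 0 fell, with a median log2 change of 1.04. Of all genes tested 15.0% were raised. With the marker covariate 1 gene of the list rose, in a fit that called 141 of all genes tested in either direction. The brush border aminopeptidase gene Anpep had 235.9, 228.7 and 290.2 normalized reads in the knockout libraries, against 40.3, 45.0 and 49.2 in the wild-type libraries (log2 change 2.46, limma adjusted p = 0.00029). The prolidase gene Pepd (1.08, 0.00149) and the lysosomal peptide transporter gene Slc15a3 (1.48, 0.00781) also rose, as did Slc15a1 (1.39, 0.0157), the apical peptide transporter PEPT1, which was added after its values were seen. With the library labelled wild type replicate 3 left out, 4 genes of this list rose. Leaving out knockout replicate 3 left 3 raised genes.

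**Figure D5:**
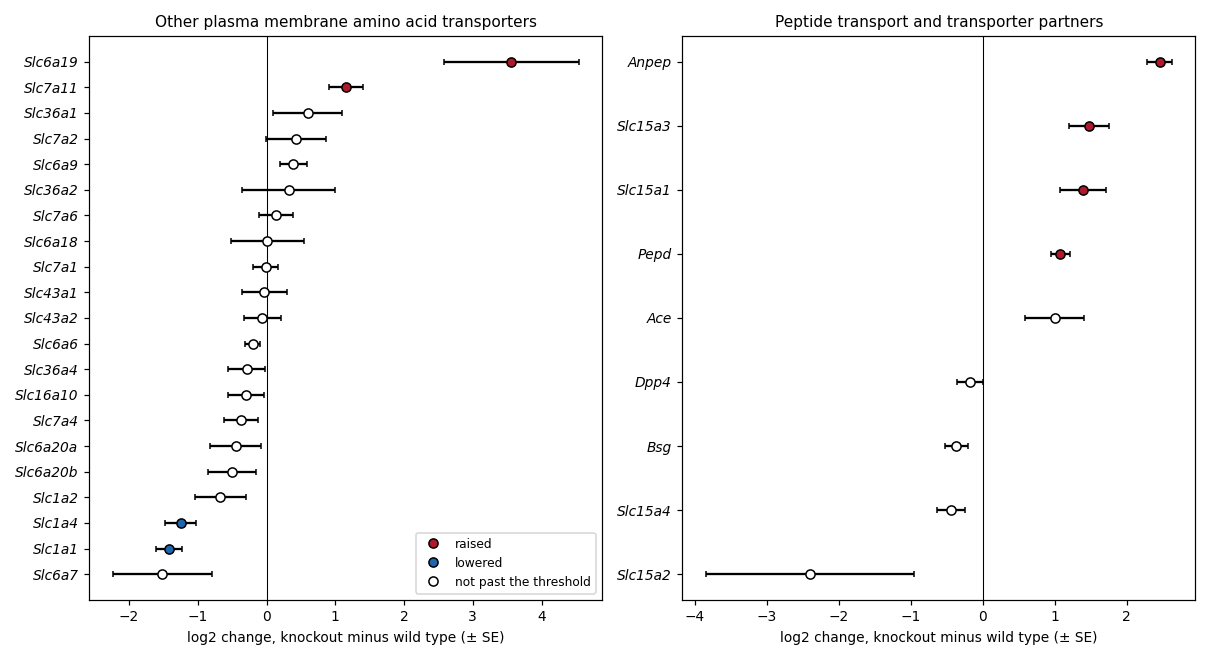
Log2 change (knockout minus wild type) with its SE for the tested genes of 2 lists, other plasma membrane amino acid transporters (21 genes, left) and peptide transport with transporter partners (9 of its 10 tested genes, right), filled where the test was passed. On the left 2 are raised and 2 lowered, and on the right 4 are raised and 0 lowered.

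Carriers inside the cell went both ways, and of all genes tested 15.0% were raised and 15.4% lowered. Of 10 tested mitochondrial amino acid carriers 2 rose and 3 fell, with Slc25a22, a glutamate carrier, at 860.6, 652.9 and 725.6 normalized reads in the knockout libraries and 348.1, 439.1 and 329.7 in the wild-type libraries (log2 change 1.0, limma adjusted p = 0.00407). The mitochondrial membrane gene Sfxn3 (-1.95, 0.000869) and the basic amino acid carrier gene Slc25a29 (-1.57, 0.00709) fell. Leaving out any 1 of the wild-type libraries, or knockout replicate 2, left 1 raised gene in this list. Of 9 lysosomal and vesicular transporters Slc7a14 rose (0.64, 0.0235) and Slc38a9, which signals lysosomal arginine to the kinase complex mTORC1, fell (-1.17, 0.028), while Slc66a1 had a change of 0.45 (0.0617). Both of these calls were lost on leaving out wild type replicate 1 or 2 or knockout replicate 1, and that of Slc7a14 also on leaving out knockout replicate 3.

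ATF4 is the transcription factor of the amino acid response, and Slc3a2, Slc7a5 and Slc7a11 are known targets of it. They were named here from transporter genes that rose and are not its full set of targets. Slc1a5 (log2 change -1.16, limma adjusted p = 0.0014) and Slc1a4 (-1.25, 0.00623) fell, and Slc7a1 (-0.01) did not pass the test. A part of ATF4 in these changes was not tested. Slc38a2, induced when amino acids are short, did not pass the test (log2 change 0.05, limma adjusted p = 0.815). Of 25 genes of the amino acid response, all tested, 10 rose and 6 fell, with a median log2 change of 0.34. Of all genes tested 15.0% were raised and 15.4% lowered. The 6 genes of the list that fell, named after their values were seen, were Atf4 itself, Atf3, Ddit3, Cth, Gpt2 and Eif2ak4. Leaving out 1 library, 7 to 11 of the list rose and 6 to 7 fell. With the marker covariate 1 of the list rose and 0 fell, with a median of -0.02, in a fit that called 141 of all genes tested. That fit can hardly tell genotype and marker level apart, so these counts say little about the list. The translation repressor gene Eif4ebp1 had 805.1, 526.7 and 563.3 normalized reads in the knockout libraries, against 165.6, 139.8 and 182.1 in the wild-type libraries (log2 change 1.93, limma adjusted p = 0.000819). The mTORC1 inhibitor gene Ddit4 (1.91, 0.000919) and the mitochondrial serine enzyme gene Shmt2 (1.46, 0.00136) rose as well.

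Of 20 cytosolic aminoacyl-tRNA synthetase genes, the enzymes that load amino acids onto tRNA, 6 rose and 0 fell, with a median log2 change of 0.35. Among all genes tested 15.0% were raised and 15.4% lowered. With the marker covariate 0 of the synthetase genes passed the test in either direction, with a median of 0.09. That fit called only 141 of all genes tested, so a count of 0 says little about these genes. Cars (log2 change 1.02, limma adjusted p = 0.00463), Wars (1.41, 0.0074) and Rars (0.58, 0.00969) had the smallest p. Wars had 5363, 2705 and 3045 normalized reads in the knockout libraries, against 1154, 1252 and 1628 in the wild-type libraries, highest in knockout replicate 1 as for Slc3a2, Slc7a5 and Slc7a7. Leaving out wild type replicate 1 or 2 left 3 raised synthetase genes, and leaving out the library labelled wild type replicate 3 left 5. Of 25 genes of mTORC1 and amino acid sensing 2 rose, Lamtor3 (0.64, 0.0169) and Lamtor5 (0.43, 0.0198), and 3 fell, among them Rheb (-0.55, 0.0229), the GTPase that activates mTORC1. Both counts lay below the shares of all genes tested, 15.0% raised and 15.4% lowered. Leaving out wild type replicate 1 or 2 left 0 called in either direction, and leaving out the library labelled wild type replicate 3 left 2 raised and 2 lowered.

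Genes that use amino acids inside the cell also went both ways, with 4 of 22 raised and 5 lowered. The shares of all genes tested were 15.0% raised and 15.4% lowered. Nos2, which makes nitric oxide from arginine, had 5011, 604.3 and 2194 normalized reads in the knockout libraries, against 7.43, 19.6 and 38.2 in the wild-type libraries (log2 change 6.63, limma adjusted p = 0.00167). Ass1, which remakes arginine from citrulline, rose (1.24, 0.00235), and Oat, the mitochondrial ornithine aminotransferase, fell (-1.01, 0.00265). Leaving out wild type replicate 1 or 2 left 2 lowered genes, and leaving out the library labelled wild type replicate 3 left 4.

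The genes whose profile over the 6 libraries lay nearest to that of Slc7a9, by Euclidean distance between centred log2 values among 12837 genes, were Lilra6 (0.432), Pira2 (0.841) and Trf (0.871). Lilra6 and Pira2 are immunoglobulin-like receptor genes, close paralogs whose reads may be shared. Both were near the floor in the wild-type libraries, so their distances rest on few reads. Lilra6 had 1.06, 4.89 and 4.55 normalized reads there, and Pira2 1.06, 7.82 and 8.2. Trf, the transferrin gene, had 387.9, 529.8 and 658.7 normalized reads in the knockout libraries, against 37.1, 91.9 and 70.1 in the wild-type libraries. Nearest to Slc1a5 were Pcgf2 (0.149), Zfp821 (0.151) and Prpsap1 (0.199). Prpsap1 had 902.6, 960.2 and 954.7 in the knockout libraries, against 1999, 2552 and 1630 in the wild-type libraries, lowest among these in the library labelled wild type replicate 3, as for Slc1a5.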

How the data were processed

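Per gene and library, the authors deposited a normalized signal. From its values, it is read counts divided by 1 size factor for each library. The submitters' processing notes name FastQC, TopHat, DESeq2 and mm10, without versions or roles. In every column 100% of values were whole multiples of 1 step within 0.001, which recovered the reads. Of 23725 Entrez numbers 23666 matched a RefSeq symbol (GRCm38.p6). Libraries were not stranded, per the labels' protocols.

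Log2(value + 1) was fitted with limma 3.58.1 (R 4.3.3) with an intensity-dependent prior over all 12837 genes with at least 10 in at least 3 libraries. Benjamini-Hochberg adjustment ran over all of them with a threshold of 0.05. A log2 change is knockout minus wild type on this scale, which understates the change of low genes. Values given in parentheses as a pair are the log2 change and the limma adjusted p. The script was tested on simulated counts.

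The transporter genes and all lists were chosen with earlier results of these data known. Named by rule were all 10 genes, Nr3c1, up to 3 genes per pathway list with the smallest adjusted p, and the 3 genes nearest to the raised and the lowered transporter of smallest p. Also tried were other pseudocounts, filters and scalings, robust and weighted fits, a marker covariate, tests of the recovered reads by edgeR 4.0.16 and DESeq2 1.42.0, and fits with 1 library left out. Some genes of the lists enter the counts only and are not reported here by name.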

Additional observations from a re-analysis of the deposited data

How the results depend on the processing

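On the recovered reads edgeR called 3893 genes and DESeq2 4164, against 3910 with limma, and both called the same 6 transporter genes. The changes of Slc6a14 (log2 -1.10 to -0.78), Slc1a5 (-1.25 to -1.03), Slc7a7 (0.83 to 1.13) and Slc7a9 (2.92 to 3.69) passed the test in all 17 alternatives other than the marker covariate, 6 of which leave out a library. Slc3a2 passed in 12 and Slc7a5 in 14 of them, and their losses were all with a library left out. Leaving out 1 library, the raised transporters numbered 2 to 4 and the lowered ones 2 to 3, and the genes called among all 1923 to 3607, fewest on leaving out wild type replicate 1 (1923) or 2 (1960). With the marker covariate 0 transporters were raised and 0 lowered, and 141 genes were called among all. The value of Slc38a2, which did not pass the test in any fit, turned from 0.05 to -0.24 with the marker covariate, -0.04 with quantile normalization, -0.03 on leaving out knockout replicate 3 and -0.04 on leaving out wild type replicate 2, within -0.04 to 0.15 over the 6 fits with 1 library left out. The cause was not tested. No paired analysis was possible because the labels give no replicate numbers shared between groups, and those used here are names in accession order. Reads per library went down to 17 for Slc7a9 and 19 for Slc7a8, which limits the precision of both. Slc7a8 could not be tested with the filter at 50.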
